A study of Mus musculus with 6 samples.

Results

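The genes described here are 41 macrophage and myeloid genes (the 4 macrophage markers Adgre1, Csf1r, Cd68 and C1qa, and other myeloid surface, complement, phagocyte and leukocyte genes), picked by symbol from a list of such genes. All 41 were found among the 35027 genes of the table. Their transcripts were measured by RNA-seq in cells sorted for Kate from thyroid tumors of mice of 2 genotypes, with 3 libraries each. YAP mice (RIK-rtTA/tetO-YAPS127A with a thyroid-specific Cre) expressed a constitutively nuclear YAP mutant under doxycycline (dox) control, and BrafYAP mice carried in addition an LSL allele of mutant Braf at the endogenous gene. All mice were on a mixed background and received dox chow, from 4 weeks of age in the labels (a later start stands in the results text of the paper). The RIK allele couples the dox-responsive activator to Kate, a red fluorescent protein, so the gate selected cells of the Cre lineage, and the sources used here describe no separate step that removes leukocytes. By the labels each YAP library (replicates 1, 2 and 3) pooled 3 tumors and each BrafYAP library (replicates 1, 2 and 6) held 1 tumor, whereas the paper's methods describe a single tumor for every replicate. If the labels hold, pooling and genotype cannot be told apart.

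Macrophages are phagocytes that differentiate from circulating monocytes or self-renew in tissues. They depend on CSF1R, the receptor for CSF1 and IL-34, and on PU.1, the ETS transcription factor encoded by Spi1 that drives much of the myeloid program. Their surface carries Fc receptors, which bind antibody-coated particles, together with lectins and scavenger receptors that take up microbes, lipoproteins and dying cells. Macrophages are abundant in advanced thyroid cancers, and some of these genes, such as Lyz2 and Apoe, are also known in other cell types.

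Values are given as scaled reads, the reads behind each deposited value returned to the authors' scaling between libraries, always in the order YAP replicates 1, 2 and 3 and BrafYAP replicates 1, 2 and 6. The libraries held 26.2 to 36.9 M estimated reads. Among them 2 stood apart. BrafYAP replicate 6 had 493167 scaled reads of the surfactant gene Sftpa1, against 7.14 to 562 in the other libraries. YAP replicate 1 was poor in GC-rich transcripts. Among the most GC-rich genes (at least 58.2% GC), its median deviation from the other YAP libraries was -1.19 on the log2 scale, compared with 0.04 for the rest. The part of these differences in the results was not tested. The thyroid lineage gene Pax8 was present in all 6 libraries (11455, 12162 and 14512 against 12347, 7151 and 5135), as was the keratin gene Krt8 (20053, 62459 and 114939 against 133300.0, 79523 and 59261), but Tshr, the thyrotropin receptor gene, had 142, 61.7 and 25.5 against 0, 0 and 487 scaled reads and so was at 0 in BrafYAP replicates 1 and 2.

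Myeloid transcripts made up a considerable part of the sorted material in both genotypes and were mostly less abundant in BrafYAP libraries. On TPM recomputed with exonic length, the 41 genes together accounted for 6.03, 5.15 and 2.01% of all transcripts in YAP and 2.05, 1.46 and 0.620% in BrafYAP libraries, and without Lyz2, the most abundant, for 2.15, 2.42 and 0.906% and 0.847, 0.550 and 0.320%. With Lyz2 the groups overlapped, by YAP replicate 3 against BrafYAP replicate 1, and without it they did not. In bulk RNA, fewer cells of a type and less RNA per cell cannot be told apart.

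On scaled reads all 41 genes passed the minimum mean of 10 reads, and 38 had a log2 fold change (BrafYAP over YAP) below 0, compared with 55.7% of the 16806 genes tested. The median over the 41 genes was -1.77, and that over all genes tested was -0.12. No myeloid gene passed the limma adjusted threshold of 0.05, as no gene of the whole table did on this scale (0%), and the adjusted p-values of the 41 genes ranged from 0.0872 to 0.874. Without adjustment 27 genes had a limma p-value under 0.05, all 27 lower in BrafYAP cells. Of all genes tested, 20.3% had such a p-value, 10.6% lower and 9.69% higher. For 22 genes every BrafYAP library lay below every YAP library, against 17.1% of all genes tested, and for 0 genes every BrafYAP library lay above (11.7% of all genes). The count of 27 was 17 without YAP replicate 1, 16 without YAP replicate 2 and 24 without BrafYAP replicate 6. Of all genes tested in these fits, 1203 of 16800, 1470 of 16853 and 1911 of 16561 were lower at that p-value. By voom on the estimated reads 30 genes were lower at that p-value (1680 of all 16806 genes) and 0 passed the adjusted threshold. The absence of adjusted calls did not hold in all settings. After quantile normalization 62 genes of the whole table passed, and without BrafYAP replicate 6 there were 190, among them Ptprc. With limma array weights 9 of the 41 genes passed (Ptprc, Ccr2, Aif1, C1qb, C1qc, Fcgr4, Cx3cr1, Ms4a7 and Fcer1g, all lower in BrafYAP cells), together with 1889 of all 16806 genes.

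The deposited TPM gave a similar picture for the 30 genes whose mean value was at least 1. Of these, 28 had a log2 fold change below 0 (55.3% of the 7319 genes tested), and the median was -1.51, compared with -0.06 for all genes. Again 0 genes passed the limma adjusted threshold, which 0.246% of all genes did. At an unadjusted p-value under 0.05 there were 21 lower genes (9.17% of all genes) and 0 higher genes (10.7%), where 19.9% of all genes had such a p-value in either direction, and in 16 genes the groups did not overlap (16.4% of all genes lower in every BrafYAP library). The 11 genes under the minimum on this scale (Adgre1, Ptprc, Mrc1, Cd163, Mertk, Msr1, Marco, Cx3cr1, Lyz1, Nos2 and Gpnmb) had at most 6771 scaled reads in any library, and most have long genomic spans, by which the deposited values were divided.

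**Figure D1:**
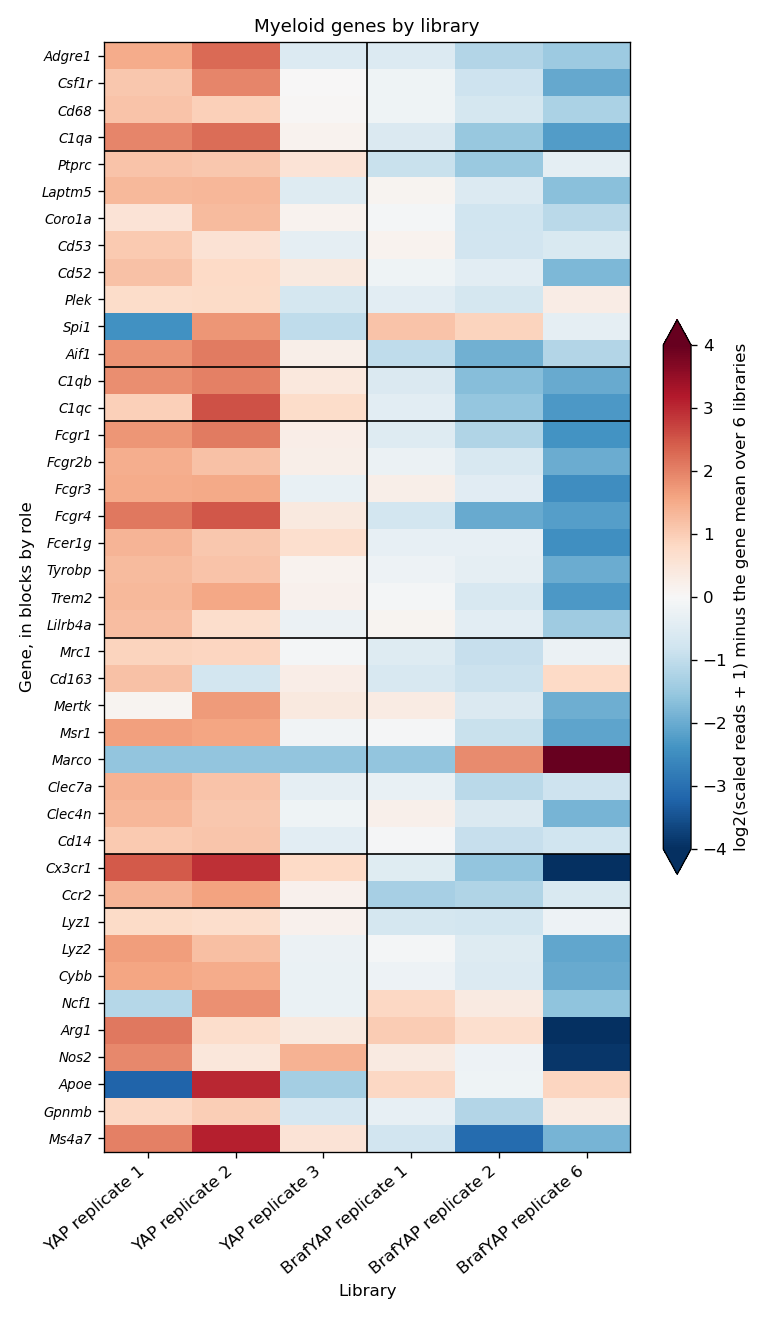
Heat map of the 41 myeloid genes (rows, in blocks by role in the order of the text) in the 6 libraries (columns). Color gives log2(scaled reads + 1) minus the mean of the gene over the 6 libraries, from blue (lower) to red (higher), with the scale ending at 4. Most genes are red in YAP replicates 1 and 2, pale in YAP replicate 3 and BrafYAP replicate 1, and blue in BrafYAP replicates 2 and 6, and Spi1, Ncf1, Apoe and Marco depart from this.

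The order of the libraries was shared by most of the genes. YAP replicates 1 and 2 were the 2 highest libraries for 33 of the 41 genes, and YAP replicate 2 was the highest for 22 genes and YAP replicate 1 for 18. The lowest library was BrafYAP replicate 6 for 26 genes and BrafYAP replicate 2 for 11. YAP replicate 3 lay close to BrafYAP replicate 1 and was the higher of the pair in 24 of 41 genes. Within BrafYAP, replicate 1 exceeded replicate 2 in 39 genes.

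Single libraries weighed on the size of some differences. Without BrafYAP replicate 6 the fold moved by more than 1.5 times in 9 genes. The log2 fold change was then -3.08 for Cx3cr1, -1.36 for Trem2, -1.35 for Fcer1g, -1.17 for Lyz2, -1.01 for Fcgr3 and -0.88 for Mertk, all nearer to 0 than with that library, and the remaining 3 genes were Arg1, Nos2 and Ncf1. Without YAP replicate 3 it moved as much in 9 genes, all farther from 0, namely Adgre1 (-2.95), C1qa (-3.55), Cx3cr1 (-4.74), Cybb (-2.45), Fcgr3 (-2.40), Fcgr4 (-3.94), Laptm5 (-2.01), Ms4a7 (-4.47) and Msr1 (-2.64). Fewer genes moved so without the other libraries. There were 3 without YAP replicate 1 (Apoe, Ncf1 and Spi1), 5 without YAP replicate 2 (Adgre1, Apoe, Ms4a7, Ncf1 and Spi1), 3 without BrafYAP replicate 1 (Arg1, Cx3cr1 and Nos2) and 2 without BrafYAP replicate 2 (Arg1 and Ms4a7).

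All 4 markers were lower in every BrafYAP library than in every YAP library, as were 17.1% of all genes tested. Csf1r, the gene of the CSF1 receptor (chromosome 18, 61100598 to 61132149, mm10), had 24252, 44242 and 11403 scaled reads in YAP and 10040.5, 6415 and 2738 in BrafYAP libraries (log2 fold change -2.04, SE 0.63, limma adjusted p = 0.151). Adgre1, the gene of the macrophage surface protein F4/80 (chromosome 17, 57358691 to 57483527), had 2000.3, 3419 and 484 scaled reads in YAP and 484, 312 and 258 in BrafYAP libraries (log2 fold change -2.14, SE 0.70, limma adjusted p = 0.165). The lowest YAP value of Adgre1, in replicate 3, was within 1 read of the highest BrafYAP value, in replicate 1, so that its separation is marginal. Cd68, which encodes a lysosomal glycoprotein of phagocytes (chromosome 11, 69664213 to 69666153), had 14483, 12693 and 6789.5 scaled reads in YAP and 5768, 3984 and 2701 in BrafYAP libraries (log2 fold change -1.44, SE 0.42, limma adjusted p = 0.134). The fold change of Adgre1 ranged from -2.95 to -1.54 when each library was left out in turn, and that of Csf1r from -2.55 to -1.52. Csf1r overlaps Hmgxb3 and can share reads with it.

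The C1q genes, whose products form the recognition unit of the classical complement pathway and are made mainly by macrophages, were among the members with the lowest log2 fold changes. C1qa (chromosome 4, 136895917 to 136898803) had 31291, 37694 and 8772 scaled reads in YAP and 5322, 2788 and 1715 in BrafYAP libraries (log2 fold change -2.89, SE 0.65, limma adjusted p = 0.0998). C1qb (chromosome 4, 136880129 to 136886187) had 45828, 51145 and 17055 scaled reads in YAP and 8567, 3845 and 3120.0 in BrafYAP libraries (log2 fold change -2.87, SE 0.55, limma adjusted p = 0.0872), the lowest adjusted p-value of the 41 genes. C1qc (chromosome 4, 136889804 to 136893065) had 13828, 42083 and 11794 scaled reads in YAP and 5395, 2468 and 1461 in BrafYAP libraries (log2 fold change -2.82, SE 0.64, limma adjusted p = 0.0998). All 3 genes lie side by side on chromosome 4. In each the highest BrafYAP library, replicate 1, was below the lowest YAP library, as in 17.1% of all genes tested. As ratios of group means, C1qa was 7.91-fold, C1qb 7.34-fold and C1qc 7.26-fold lower in BrafYAP cells. Without BrafYAP replicate 6 the log2 fold changes of the 3 genes were still below -2, and over the fits that left out each library they ranged from -3.55 to -2.49, -3.37 to -2.57 and -3.32 to -2.25.

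Promoters (250 bases before to 50 after a transcription start, from RefSeq on GRCm38.p6) were given for 29 of the 41 genes. They were searched on both strands for GAGGAA and GGAAGT, overlapping letters of the purine-rich motif that PU.1 and other ETS factors bind. GAGGAA occurred in 18 of the 29 genes (62.1%) and in 31.3% of all 27025 genes with a promoter, GGAAGT in 13 (44.8%) and in 26.5%, and either of them in 21 (72.4%) and in 47.0%. A gene with several starts was counted once. These are matches of letters and do not show binding. Shown here, 5′ to 3′ on the strand of the gene, are C1qb and C1qc as neighbors that differed together, Fcgr4 as the Fc receptor with the widest difference, and Lyz2 as the most abundant gene. Capitals mark either motif or its reverse complement.
C1qb (chr4:136886151-136886450, strand -): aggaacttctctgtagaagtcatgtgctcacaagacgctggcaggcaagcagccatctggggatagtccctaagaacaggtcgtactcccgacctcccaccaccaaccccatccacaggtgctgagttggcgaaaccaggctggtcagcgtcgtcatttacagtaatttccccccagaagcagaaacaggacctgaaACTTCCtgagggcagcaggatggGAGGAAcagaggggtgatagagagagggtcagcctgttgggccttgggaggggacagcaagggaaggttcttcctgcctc
C1qc (chr4:136892865-136893164, strand -): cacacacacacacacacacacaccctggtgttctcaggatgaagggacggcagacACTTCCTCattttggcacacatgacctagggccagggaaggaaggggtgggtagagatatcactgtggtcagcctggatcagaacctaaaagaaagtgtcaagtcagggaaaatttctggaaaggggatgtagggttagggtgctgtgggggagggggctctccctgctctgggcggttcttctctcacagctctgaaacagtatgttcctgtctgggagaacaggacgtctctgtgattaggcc
Fcgr4 (chr1:171018676-171018975, strand +): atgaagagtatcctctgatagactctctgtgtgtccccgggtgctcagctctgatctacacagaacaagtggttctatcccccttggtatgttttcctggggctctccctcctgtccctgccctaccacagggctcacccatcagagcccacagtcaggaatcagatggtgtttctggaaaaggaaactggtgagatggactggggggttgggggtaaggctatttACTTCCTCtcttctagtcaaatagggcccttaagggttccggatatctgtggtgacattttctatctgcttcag
Lyz2 (chr10:117282223-117282522, strand -): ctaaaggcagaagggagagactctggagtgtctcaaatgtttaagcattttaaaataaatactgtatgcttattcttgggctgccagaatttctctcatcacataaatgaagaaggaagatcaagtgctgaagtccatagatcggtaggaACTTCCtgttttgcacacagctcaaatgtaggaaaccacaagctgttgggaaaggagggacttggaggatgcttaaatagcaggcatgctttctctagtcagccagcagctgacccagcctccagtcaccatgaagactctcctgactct
C1qb holds each motif once, at separate positions, whereas in C1qc and Fcgr4 the 2 motifs overlap in a single run. Lyz2 holds GGAAGT alone. Cx3cr1 and Ccr2 were among the 8 matched genes with neither motif in the window.

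**Figure D2:**
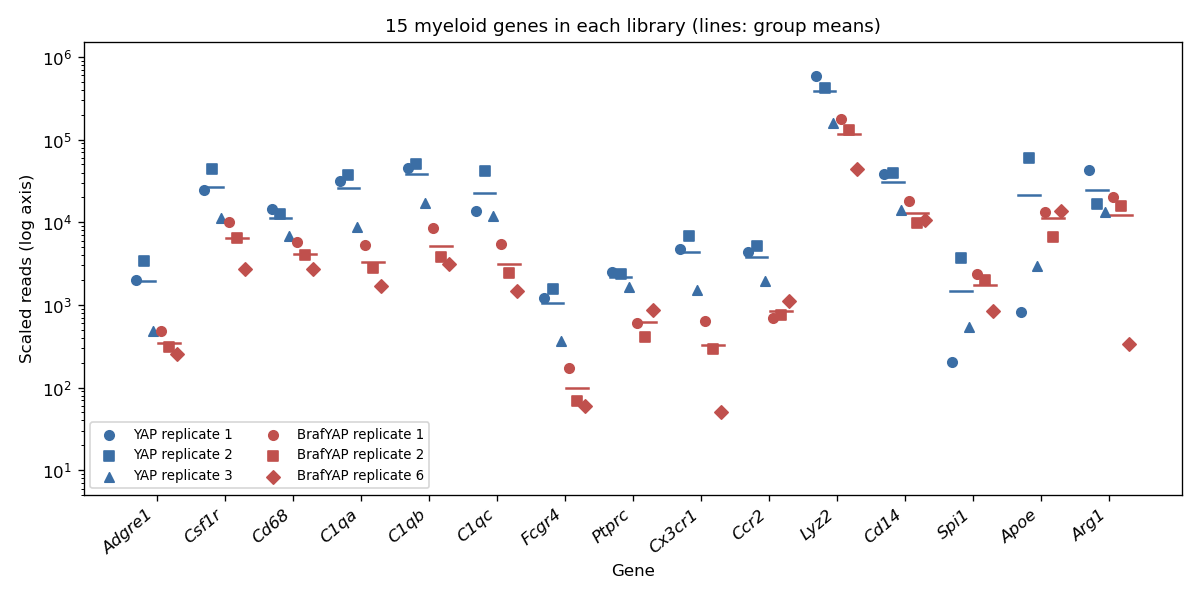
Scaled reads (vertical axis, logarithmic) of 15 myeloid genes (horizontal axis) in each of the 3 YAP libraries (blue) and 3 BrafYAP libraries (red), with short lines at the group means. The C1q genes, Fcgr4, Ptprc, Cx3cr1 and Ccr2 separate the genotypes, Lyz2 and Cd14 overlap through YAP replicate 3, Apoe and Spi1 are lowest in YAP replicate 1, and Arg1 is lowest in BrafYAP replicate 6.

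Of the 8 pan-leukocyte and cytoskeletal genes, 4 were lower in every BrafYAP library (Ptprc, Aif1, Cd52 and Coro1a) and 4 overlapped (Laptm5, Cd53, Plek and Spi1). Of all genes tested, 17.1% lay lower in every BrafYAP library. Ptprc, the gene of the leukocyte phosphatase CD45 (chromosome 1, 138062861 to 138175708), had 2516, 2400.2 and 1654 scaled reads in YAP and 606, 405 and 864 in BrafYAP libraries (log2 fold change -1.85, SE 0.37, limma adjusted p = 0.0888). It was the sole member to pass the threshold in a fit that left out a library, without BrafYAP replicate 6, with an adjusted limma p of 0.04999, just under the threshold, and a log2 fold change of -2.12. Aif1, which encodes the actin-binding protein IBA1 (chromosome 17, 35170991 to 35176068), had 1356, 1644 and 459 scaled reads in YAP and 192, 101 and 173 in BrafYAP libraries (log2 fold change -2.74, SE 0.54, limma adjusted p = 0.0888). In contrast, Laptm5, the gene of a lysosomal membrane protein of blood cells, had 38362, 39173 and 10872 scaled reads in YAP and 16932, 10825 and 4906 in BrafYAP libraries, and the groups overlapped. Cd53, a tetraspanin gene, and Plek, the gene of the kinase C substrate pleckstrin, had 9228, 6661 and 3507 against 5004, 2634 and 2932 and 4285, 4357 and 1587 against 1891, 1574 and 3165 scaled reads, both with overlap. Their log2 fold changes were -0.83 (SE 0.44) and -0.55 (SE 0.48), with limma adjusted p-values of 0.331 and 0.542. Cd52, the gene of a small surface glycopeptide of leukocytes, had 7185, 5607 and 4192 against 2865, 2395 and 921 scaled reads, and Coro1a, the gene of an actin regulator of leukocytes, had 11429.5, 19021 and 8646 against 7399, 4553 and 3689. These genes overlap Crybg2 and Bola2, and their log2 fold changes were -1.58 (SE 0.47) and -1.31 (SE 0.41).

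Spi1 itself did not follow the other members. It had 201, 3676 and 536 scaled reads in YAP and 2393, 2004 and 841 in BrafYAP libraries (log2 fold change 1.11, SE 1.01, limma adjusted p = 0.555), and the groups overlapped because YAP replicate 2 was the highest of the 6 libraries, while YAP replicates 1 and 3 were the lowest. Its transcript is 58.9% GC, and that of Apoe is 59.5%, among the GC-rich genes in which YAP replicate 1 was low. C1qa, at 59.5% GC, was not low in that library. The part of GC content in the values of these genes was not tested. Without YAP replicate 1 the log2 fold change of Spi1 was 0.18 and without YAP replicate 2 it was 2.27, compared with 0.66 (limma adjusted p = 0.653) after the median deviation of each library had been removed within bins of GC content.

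All 8 Fc receptor, adaptor and related receptor genes had a log2 fold change below 0 (55.7% of all genes tested), with a median of -1.96. In 6 of them every BrafYAP library lay below every YAP library (17.1% of all genes tested). Fcgr4, an activating receptor for IgG (chromosome 1, 171018920 to 171029761), had 1218, 1569 and 368 scaled reads in YAP and 171, 68.4 and 60.6 in BrafYAP libraries (log2 fold change -3.30, SE 0.65, limma adjusted p = 0.0888). Fcgr1, the high-affinity IgG receptor gene (chromosome 3, 96282909 to 96293969), had 1749, 2197 and 615 scaled reads in YAP and 359.6, 223 and 97.6 in BrafYAP libraries (log2 fold change -2.74, SE 0.64, limma adjusted p = 0.104). These activating receptors were 10.5-fold and 6.70-fold lower by the ratio of group means, compared with 3.54-fold for Fcgr2b, the inhibitory receptor gene, and 3.09-fold for Fcgr3, a further activating receptor gene. Fcgr2b had 18720.4, 15612 and 8052 scaled reads in YAP and 5829, 4392 and 1741 in BrafYAP libraries (log2 fold change -1.91, SE 0.53, limma adjusted p = 0.129). Fcgr3 overlapped between groups, with 27567, 28325 and 8098 against 11705, 7249 and 1751 scaled reads (log2 fold change -1.80, SE 0.79, limma adjusted p = 0.256). The Fcgr genes other than Fcgr1 are paralogs in a cluster on chromosome 1, so that reads may be divided among them.

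Fcer1g and Tyrobp, which encode adaptors of activating receptors, were also lower in every BrafYAP library. Fcer1g had 10631, 8703 and 6623 scaled reads in YAP and 3326, 3319.5 and 754 in BrafYAP libraries (log2 fold change -2.07, SE 0.60, limma adjusted p = 0.136), and Tyrobp had 9791, 8850.2 and 4502 scaled reads in YAP and 3519.7, 3136 and 1018 in BrafYAP libraries (log2 fold change -1.71, SE 0.55, limma adjusted p = 0.16). In both, BrafYAP replicate 6 was well below replicates 1 and 2, which resembled each other, and without it the log2 fold changes were -1.35 and -1.14. Trem2, a lipid-sensing receptor gene of macrophages, had 3566, 4212 and 1639 against 1376, 932 and 296 scaled reads (log2 fold change -2.00, SE 0.63, limma adjusted p = 0.155). Lilrb4a, the gene of an inhibitory receptor, had 11283, 7665 and 4064 against 5169.9, 3565 and 1759, and its groups overlapped (log2 fold change -1.15, SE 0.52, limma adjusted p = 0.27).

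Of the 8 scavenger, lectin and clearance receptors, 7 overlapped between genotypes, the most of the groups by role. Overlap was also the common state of all genes tested, of which 17.1% lay lower and 11.7% higher in every BrafYAP library. At an unadjusted limma p-value under 0.05, 5 of the 8 were lower (10.6% of all genes). Cd14, the co-receptor gene for bacterial lipopolysaccharide (chromosome 18, 36725067 to 36726798), had 38683, 39772 and 14005 scaled reads in YAP and 18219, 9885 and 10749 in BrafYAP libraries (log2 fold change -1.16, SE 0.49, limma adjusted p = 0.241), and YAP replicate 3 lay below BrafYAP replicate 1. The same overlap was seen for Clec7a, which encodes the glucan receptor dectin-1 (18713, 15903 and 5622 against 5838, 3356 and 4028 scaled reads), and for Clec4n, which encodes dectin-2 (26449, 22328 and 9379 against 12336, 7099 and 2925). Their log2 fold changes were -1.47 (SE 0.50) and -1.48 (SE 0.61), with limma adjusted p-values of 0.173 and 0.237. Mrc1, the gene of the mannose receptor CD206, was the exception without overlap, with 1269, 1229 and 637 scaled reads in YAP and 475, 354 and 581 in BrafYAP libraries (log2 fold change -1.11, SE 0.38, limma adjusted p = 0.174). Msr1, a scavenger receptor gene for modified lipoproteins, had 3635, 3447 and 1038 against 1111, 624 and 265 (log2 fold change -2.05, SE 0.67, limma adjusted p = 0.164), and Mertk, a receptor gene for clearance of dying cells, had 290.0, 884 and 356 against 334, 179 and 68.6 (log2 fold change -1.48, SE 0.67, limma adjusted p = 0.269).

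Genes of 2 resident macrophage scavenger receptors were barely detected. Cd163, the hemoglobin scavenger receptor gene, had 25.4, 6.05 and 13.3 scaled reads in YAP and 6.58, 5.44 and 19.3 in BrafYAP libraries (log2 fold change -0.47, SE 0.84, limma adjusted p = 0.772). Marco, the collagen-like scavenger receptor gene of alveolar and splenic macrophages, had 0 reads in all 3 YAP libraries and in BrafYAP replicate 1, 13.0 estimated reads in BrafYAP replicate 2 and 72.0 in BrafYAP replicate 6. It was thus detected most in the library with the surfactant transcripts. No fold change is given for it, since the groups overlapped at 0 reads. The median of the 41 genes stayed at -1.77 with Marco set to its bound over a floor of 3 reads per library.

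Both chemokine receptor genes were lower in every BrafYAP library, as were 17.1% of all genes tested. Cx3cr1, the fractalkine receptor gene of patrolling monocytes and resident macrophages (chromosome 9, 119901616 to 120069879), had 4791, 6771 and 1533 scaled reads in YAP and 638, 294 and 50.1 in BrafYAP libraries (log2 fold change -4.11, SE 0.97, limma adjusted p = 0.106), the widest fold change of the 41 genes. Leaving out each library in turn gave -4.91 to -3.08, with the narrowest value without BrafYAP replicate 6. The annotated span of Cx3cr1 holds 9 other genes, among them Csrnp1 and Wdr48, so that part of its reads is uncertain. Ccr2, the receptor gene of inflammatory monocytes (chromosome 9, 124101950 to 124113557), had 4382, 5199 and 1941 scaled reads in YAP and 687, 752 and 1112 in BrafYAP libraries (log2 fold change -2.09, SE 0.43, limma adjusted p = 0.091). For Ccr2 it was BrafYAP replicate 6 that was highest among the BrafYAP libraries, whereas for Cx3cr1 that library was the lowest.

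Among effector genes, Lyz2, the gene of the lysozyme of macrophages (chromosome 10, 117277331 to 117282321), was the most abundant member, with 589486, 426100.0 and 158316 scaled reads in YAP and 175489, 130302 and 44195 in BrafYAP libraries (log2 fold change -1.77, SE 0.68, limma adjusted p = 0.211). Per exonic length its TPM was 38889, 27217 and 11028 in YAP and 12011, 9129.7 and 3007 in BrafYAP libraries. The groups overlapped, since YAP replicate 3 was below BrafYAP replicate 1. Lyz1, its neighbor and paralog, had 173, 167 and 115 against 62.0, 60.8 and 88.4 scaled reads, and reads may be divided between them. Cybb, the catalytic subunit gene of the phagocyte NADPH oxidase, had 11004, 10258 and 3049.8 against 3229, 2516 and 909 (log2 fold change -1.85, SE 0.65, limma adjusted p = 0.185). Ncf1, the gene of the oxidase organizer p47phox, had 1239, 9594 and 2263 against 4788, 3451 and 890.2 (log2 fold change -0.29, SE 0.88, limma adjusted p = 0.874), and its direction turned to 0.55 without YAP replicate 2 and 0.44 without BrafYAP replicate 6. Ncf1 overlaps Gtf2ird2.

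Arg1 and Nos2, which encode the competing arginine enzymes arginase-1 and inducible nitric oxide synthase, shared a very low value in BrafYAP replicate 6. Arg1 had 43211, 16453 and 13168 scaled reads in YAP and 20323, 15845 and 333 in BrafYAP libraries (log2 fold change -2.15, SE 1.50, limma adjusted p = 0.445), and Nos2 had 1499.7, 536 and 1037 scaled reads in YAP and 503, 346 and 25.5 in BrafYAP libraries (log2 fold change -2.50, SE 1.08, limma adjusted p = 0.25). Without BrafYAP replicate 6 their log2 fold changes were -0.23 and -1.17, so that the difference of Arg1 rested on that library. Apoe, the apolipoprotein E gene, spread over a wide range, with 824, 60421 and 2942 scaled reads in YAP and 13452, 6639 and 13786 in BrafYAP libraries (log2 fold change 1.02, SE 1.41, limma adjusted p = 0.705), and its direction turned to -0.32 without YAP replicate 1. Ms4a7, a membrane-spanning gene of mature macrophages (chromosome 19, 11321039 to 11336146), had 776, 1664 and 280.3 scaled reads in YAP and 112, 21.8 and 51.9 in BrafYAP libraries (log2 fold change -3.80, SE 0.80, limma adjusted p = 0.0922), without overlap. Gpnmb, a glycoprotein gene of lipid-laden macrophages, was low and overlapped, with 294, 329 and 103 against 132, 72.3 and 206 (log2 fold change -0.78, SE 0.59, limma adjusted p = 0.481).

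**Figure D3:**
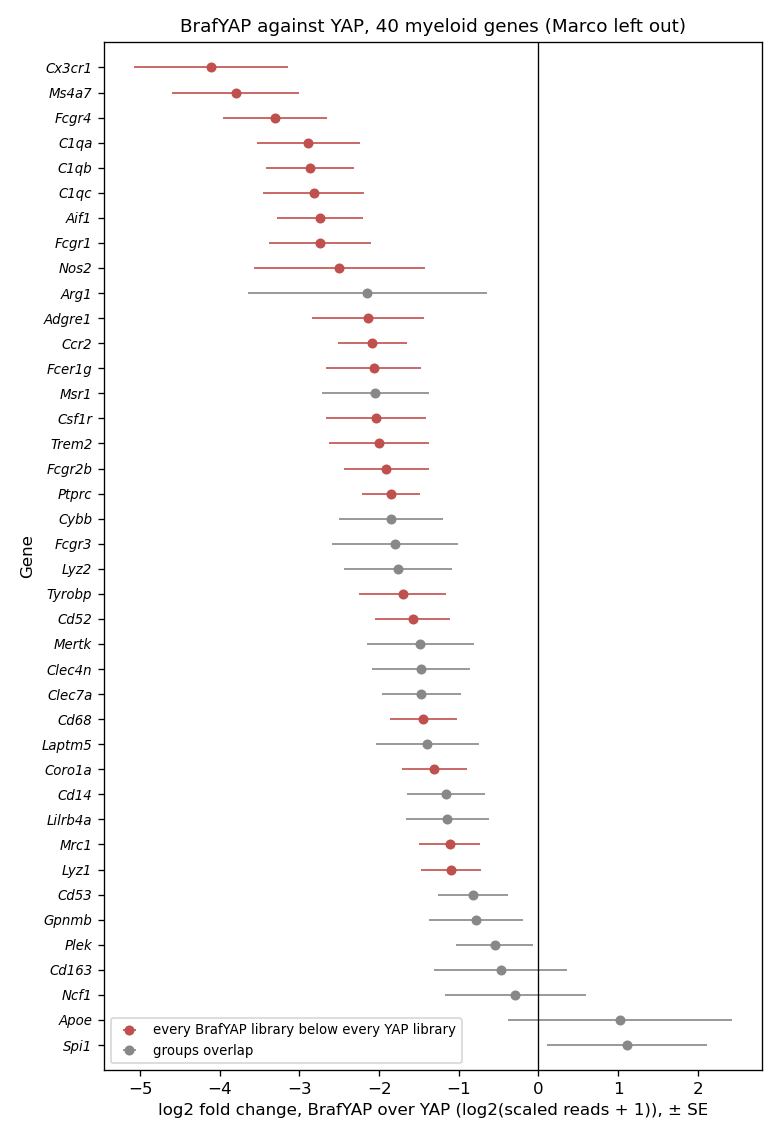
Log2 fold change of BrafYAP over YAP on log2(scaled reads + 1) (horizontal axis, with bars of 1 SE from limma) for 40 of the 41 myeloid genes (vertical axis). Marco, with 0 reads in YAP, is left out. Red marks the 22 genes in which every BrafYAP library lay below every YAP library and gray those whose groups overlap. Cx3cr1 is at -4.11, and Apoe and Spi1 are the genes shown above 0.

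Compared per exonic length, the members spanned a wide range of levels. Over the 6 libraries, Lyz2 averaged 16880.3 TPM, followed by C1qb (1723), C1qa (1215), Cd14 (1107) and Clec4n (829). At the low end were Ptprc (6.75), Gpnmb (2.55), Marco (0.571) and Cd163 (0.206). The exonic length joins all annotated exons of a gene, so that a low TPM need not mean few reads. For Ptprc it was 18313 bases, and that gene had 405 to 2516 scaled reads. The order differed by genotype. In YAP libraries C1qb averaged 3015 and Cd14 1537 TPM, whereas in BrafYAP libraries C1qb averaged 431 and Cd14 676 TPM. In YAP replicate 3 the levels of C1qb and Cd14 were 1437 and 741 TPM, and in BrafYAP replicate 1 they were 709 and 947 TPM. C1qb was thus the higher of the pair in the 3 YAP libraries and the lower in the 3 BrafYAP libraries.

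Since most members differed in the same direction, each was also set against the mean log2 level of the 4 markers in the same library, as a description with no test. That mean was 13.57, 14.00 and 12.06 in YAP and 11.77, 11.09 and 10.39 in BrafYAP libraries. Marco, at 0 reads in YAP, was left out. Of the 36 other members, 5 were lower in every BrafYAP library on this relative scale, 10 were higher and 21 overlapped. Of 16802 genes set against the same marker mean, 0.304% were lower in every BrafYAP library and 54.5% were higher, since the marker mean itself was lower in BrafYAP libraries. The 5 lower were Cx3cr1, Ms4a7, Fcgr4, C1qb and Fcgr1. Relative to the markers, Cx3cr1 was at -1.35, -1.28 and -1.47 in YAP and -2.45, -2.88 and -4.72 in BrafYAP libraries, and Fcgr4 at -3.32, -3.39 and -3.53 in YAP and -4.34, -4.97 and -4.45 in BrafYAP libraries. The values of the YAP libraries lay close together for both genes, although the absolute levels in YAP replicate 3 were far below those of the other YAP libraries. The 4 markers are set against their own mean on this scale, so that a fall in some of them requires a rise in others. C1qa was lower, at 1.36, 1.20 and 1.04 in YAP and 0.61, 0.36 and 0.35 in BrafYAP libraries. Cd68 was higher, at 0.25, -0.37 and 0.67 in YAP and 0.72, 0.87 and 1.01 in BrafYAP libraries, although its scaled reads were lower in every BrafYAP library. Adgre1 and Csf1r overlapped.

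The 10 members that were higher relative to the markers in every BrafYAP library were Spi1, Ncf1, Plek, Gpnmb, Cd53, Lilrb4a, Cd14, Coro1a, Laptm5 and Clec7a. Cd14 was at 1.67, 1.28 and 1.72 in YAP and 2.38, 2.19 and 3.00 in BrafYAP libraries. Cd53 was at -0.40, -1.30 and -0.28 in YAP and 0.52, 0.28 and 1.12 in BrafYAP libraries. Cd14 and Cd53 were thus lower in BrafYAP cells on average but less so than the markers. Lyz2 overlapped between genotypes on this scale, at 5.60, 4.70 and 5.22 in YAP and 5.65, 5.91 and 5.04 in BrafYAP libraries. Group means differed (BrafYAP minus YAP) by 0.06 for Fcer1g, 0.08 for Msr1, 0.04 for Ccr2 and 0.12 for Trem2. Single libraries spread around these means, and Ccr2 was at -1.47, -1.66 and -1.13 in YAP and -2.35, -1.53 and -0.27 in BrafYAP libraries.

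**Figure D4:**
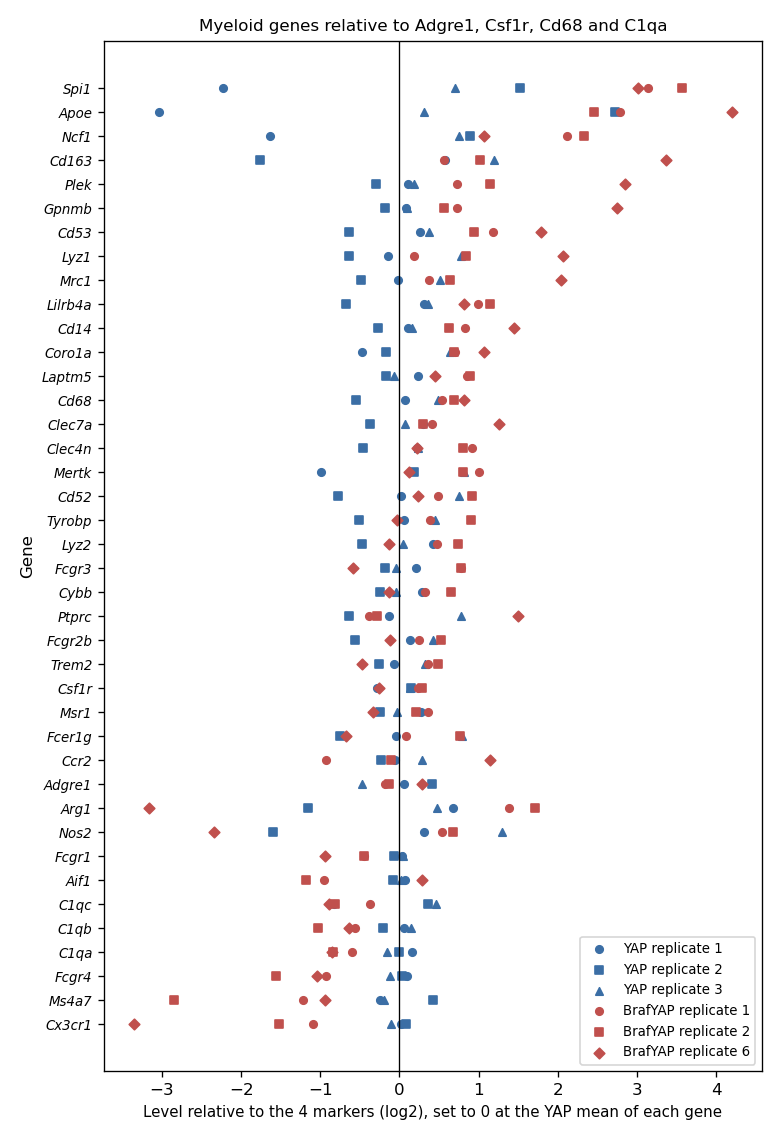
Level of 40 myeloid genes (vertical axis, Marco left out) relative to the mean of Adgre1, Csf1r, Cd68 and C1qa in the same library, on the log2 scale and set to 0 at the YAP mean of each gene (horizontal axis). Points are libraries, blue for YAP and red for BrafYAP. Cx3cr1, Ms4a7, Fcgr4 and the C1q genes lie at the left in BrafYAP libraries, although C1qc overlaps between groups through YAP replicate 1. In contrast, Cd14, Cd53, Plek, Ncf1 and Spi1 lie at the right.

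In a second list of 55 myeloid genes outside the members most, but not all, were lower in BrafYAP cells. Of these 52 were tested, with a median log2 fold change of -1.60. Their summed level per exonic length was 8796 to 19941 TPM in YAP and 9595 to 20536 TPM in BrafYAP libraries, but much of it was Spp1. That gene alone held 10485.5, 6665 and 3896 TPM in YAP and 11348.5, 5866 and 18576 TPM in BrafYAP libraries. The sum therefore does not describe the other genes of the list. Spp1, the osteopontin gene, which other cell types also express, was abundant, with 199041, 130677 and 70038 against 207641, 104842 and 341857 scaled reads (log2 fold change 0.68, SE 0.56, limma adjusted p = 0.519). Irf8, Csf2ra, Cebpa, Tlr4, Fcgrt and Folr2 also had log2 fold changes above 0, between 0.18 (Tlr4) and 1.05 (Cebpa). At an unadjusted limma p-value under 0.05, 30 were lower and 0 higher in BrafYAP cells (10.6% and 9.69% of all genes tested), and 0 passed the adjusted threshold. In 29 every BrafYAP library was below every YAP library (17.1% of all genes). Ly86, which encodes the TLR-associated protein MD-1, had 2074, 2184 and 1110.0 scaled reads in YAP and 259.9, 197 and 261 in BrafYAP libraries (log2 fold change -2.85, SE 0.36, limma adjusted p = 0.0543). Clec12a, an inhibitory lectin receptor gene, had 1318, 1541 and 715 against 205, 198 and 172 (log2 fold change -2.56, SE 0.37, limma adjusted p = 0.0599). Dock2, a Rac activator gene of leukocytes, had 1827, 1571 and 943 against 363, 265 and 252 (log2 fold change -2.26, SE 0.35, limma adjusted p = 0.0667), and Ms4a6c, a relative of Ms4a7, had 1271, 1458 and 576 against 151, 62.8 and 202 (log2 fold change -3.03, SE 0.55, limma adjusted p = 0.0816). These 4 genes were named for the lowest limma p-values of the list, so a gap between their groups follows from that choice. In them YAP replicate 3 lay above BrafYAP replicate 1, as it also did in the members C1qb, Ptprc and Ccr2.

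Of 10 genes for ligands of the receptors above, 10 were tested, and their median was -0.61. At an unadjusted limma p-value under 0.05, 2 were lower and 1 higher, where 10.6% and 9.69% of all genes tested were. Cx3cl1, the gene of fractalkine, the ligand of CX3CR1, had 19777, 37519 and 22415 scaled reads in YAP and 12744, 9142 and 7943 in BrafYAP libraries (log2 fold change -1.39, SE 0.35, limma adjusted p = 0.113), and every BrafYAP library was below every YAP library. Ccl12, a CCR2 ligand gene, had 128, 305 and 52.0 against 30.7, 21.8 and 14.9 (log2 fold change -2.50, SE 0.70, limma adjusted p = 0.129). Ccl2, the main CCR2 ligand gene, had 3856, 3879 and 3936 against 2671, 1760.4 and 265 (log2 fold change -1.85, SE 0.80, limma adjusted p = 0.25), also without overlap, and BrafYAP replicate 6 was the lowest library. In contrast, Pros1, the gene of a MERTK ligand, was higher in each BrafYAP library, with 677, 2525 and 714 against 2724, 3645 and 2969 (log2 fold change 1.53, SE 0.53, limma adjusted p = 0.176). Csf1 overlapped between groups, with 2888, 6655 and 5352 against 5155, 6134 and 921 (log2 fold change -0.61, SE 0.74, limma adjusted p = 0.665).

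The sort was made for thyroid cells, and other cell types were examined by lists of their genes. Of all genes tested, 10.6% were lower and 9.69% higher at an unadjusted limma p-value under 0.05. Of 21 T and NK cell genes, 15 were tested, with 1 lower and 2 higher at that p-value and a median of -1.31. The defining T-cell gene Cd3e was near the detection limit, with 42.7, 30.3 and 15.3 against 1.10, 0.777 and 30.8 scaled reads, compared with 99.2, 78.6 and 32.9 against 971, 2159 and 3506 for the receptor constant gene Trbc2. Of 12 thyroid and epithelial genes, 0 were lower and 1 was higher at that p-value (Epcam, with 535, 376 and 1215 against 1818, 1547 and 6941 scaled reads), and their median was 0.16. Their summed level per exonic length was 7125 to 21032 TPM in YAP and 8768 to 19806 TPM in BrafYAP libraries, so that the ranges overlapped. Epcam and Trbc2 were highest in BrafYAP replicate 6, and the part of such cells in the values of the myeloid genes was not tested.

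**Figure D5:**
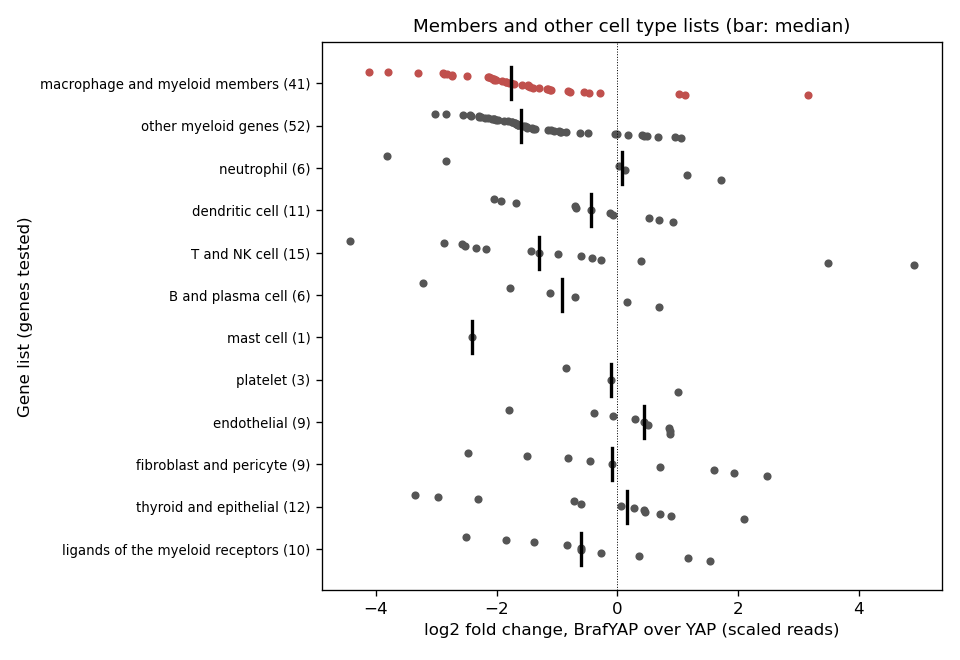
Log2 fold change of BrafYAP over YAP on scaled reads (horizontal axis) for each tested gene (points) of the 41 myeloid members (red) and of the other gene lists (gray), with the number of genes tested in brackets and black bars at the medians. The members and the other myeloid genes center at -1.77 and -1.60, and the neutrophil, endothelial and thyroid lists center above 0. Marco, with 0 reads in YAP, is the red point farthest to the right.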

How the data were processed

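RNA of Kate-positive cells was sequenced in 3 YAP and 3 BrafYAP libraries and, per the labels and the study's methods, aligned by STAR 2.6.1d to mm10 and quantified in Partek with an expectation-maximization method. The deposited values are TPM made by the authors with an offset of 0.0001 added, and each library summed to the same total. These values, less the offset and multiplied by the genomic span of GENCODE M21, were whole multiples of the value of 1 read (within 0.05) for 71.7 to 76.1% of low values, which gave estimated reads per library and, on the authors' common scaling, scaled reads. These are estimates and not raw counts, so no count test was used. Groups came from the labels. The limma test (version 3.58.1 in R 4.3.3, lmFit and eBayes with a trend, two-sided) was run on log2(TPM + 1) where the mean TPM reached 1 and on log2(scaled reads + 1) where the mean reached 10 reads. P-values were adjusted by Benjamini-Hochberg over every gene tested, at a threshold of 0.05. A log2 fold change of a low gene is understated by the pseudocount. P-values measure the spread between 3 libraries a group.

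The deposited values were planned as the first scale, with scaled reads for genes under its minimum. Scaled reads were instead used for the values of all 41 genes after both fits had been seen, to have 1 scale, and both counts are given. The genes and lists were chosen with earlier results of these data known. The centring by GC bins, the unadjusted counts, the 15 genes of the plot of values, the surfactant genes, Tshr, Spp1 and the other genes of the second myeloid list with a fold change above 0, and the 4 promoters were chosen after values had been seen. The default array-weight estimator (REML) did not converge. After its counts had been seen, it was replaced by the gene-by-gene estimator, and both are reported. All genes of the list were named, and of each other list a few with the lowest p-values or defining genes. Promoters came from RefSeq on GRCm38.p6. The procedure was tested on simulated data. The name of 1 allele and the values of 1 gene are not reported here.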

Additional observations from a re-analysis of the deposited data

How the results depend on the processing

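Among all genes on deposited TPM, 18 passed the limma adjusted threshold. This count was 1 with a pseudocount of 0.1, 0 with 0.0001, 3 with a minimum mean of 10, 0 with no filter, 79 after quantile normalization, 1 after median-ratio rescaling, 1 without a trend, 62 on TPM with exonic length, 1393 with array weights and 0 with the replicate block, and 0 to 465 when each library was left out. On scaled reads 0 passed. This count was 62 after quantile normalization, 20 without a trend, 1889 with array weights, 42 with GC bins centred, 45 with a pseudocount of 10, and 0 to 190 when each library was left out. The causes were not tested. Median-ratio rescaling moved the median log2 fold change of all genes on scaled reads from -0.12 to 0.01.

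Of the 41 genes, 0 passed except with array weights (5 of 30 on deposited TPM, 9 of 41 on scaled reads) and without BrafYAP replicate 6 (1, Ptprc). Of all genes tested, 1393 of 7319 and 1889 of 16806 passed with array weights. Without BrafYAP replicate 6, 190 of 16561 passed on scaled reads. The range for the members over the fits without each library was 0 to 1. Array weights also moved the median log2 fold change of the members to -0.78 and -0.93. The array weights of the REML estimator, which did not converge, gave 3099 of 7319 and 4661 of 16806 genes past the threshold. Members past it were 11 of 30 and 13 of 41. At an unadjusted limma p-value under 0.05, 13 and 16 members were lower (1976 and 3641 of all genes), and the medians were -0.54 and -0.67. These weights turned Laptm5 (0.17 and 0.023), Arg1 (0.12 and 0.063) and, on deposited TPM, Cd53 (0.0032) and Plek (0.057) to above 0, and Ncf1 to 0.63 and 0.66. Members lower at an unadjusted p-value numbered 13 with a minimum mean of 10 on deposited TPM, where 20 were tested, and 16 to 32 on scaled reads when each library was left out. Of all genes tested, 156 of 2094 were lower with that minimum, and 1203 to 1911 when each library was left out. Of 528 fold changes of members on deposited TPM under the alternatives 517 kept their direction, and of 694 on scaled reads 686. When each library was left out, Spi1 ranged from -0.012 (without YAP replicate 1) to 0.97 on deposited TPM. Apoe ranged from -0.33 (without YAP replicate 1) to 2.70 on deposited TPM and from -0.32 to 2.78 on scaled reads. Ncf1 was 0.43 and 0.41 with array weights, and without each library it ranged from -0.83 to 0.51 and from -0.93 to 0.55.

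The replicate numbers are not stated to pair the samples. Deviations of libraries with number 1 had a correlation of -0.05 on deposited TPM and -0.03 on scaled reads, and those with number 2 of 0.06 and 0.05. With the replicate block 0 genes passed on deposited TPM and on scaled reads, and the block gave Ncf1 0.17 and 0.24. At an unadjusted limma p-value under 0.05, 25 and 32 members were then lower, as were 425 of 7319 and 1411 of 16806 genes tested.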

Other observations

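Genes of other blood and stromal cells were measured on scaled reads as well. Of 13 neutrophil genes, 6 were tested, with 2 lower (Mmp8 and Csf3r) and 1 higher (Mmp9) in BrafYAP cells at an unadjusted limma p-value under 0.05, and their median log2 fold change was 0.08. Of 11 dendritic cell genes, 11 were tested and 1 was lower (Bst2), with a median of -0.44, and without BrafYAP replicate 6 there were 4. Of 10 B and plasma cell genes, 6 were tested and 1 was lower (Ighm), and of 6 mast cell genes the 1 tested, Kit, was lower, with a log2 fold change of -2.42. None of 3 tested platelet genes or 9 tested endothelial genes was lower or higher at that p-value. The endothelial genes were nevertheless highest in BrafYAP replicate 6, except Kdr, which was highest in YAP replicate 2. Tie1 had 22.4, 64.2 and 7.14 against 9.87, 3.11 and 784 scaled reads, and Egfl7 had 48.8, 114 and 66.3 against 47.1, 43.5 and 1072. The part of such cells in the values of the myeloid genes was not tested. Of 9 fibroblast and pericyte genes, 9 were tested, with 2 lower and 2 higher. Of all genes tested, 10.6% were lower and 9.69% higher at an unadjusted limma p-value under 0.05. No gene of these lists passed the limma adjusted threshold, as no gene of the whole table did.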
